A study of Mus musculus with 12 samples.

Results

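The 40 genes described here are nuclear receptors, taken as a fixed list of gene symbols and led by Esr1, out of 52636 genes in the deposited table. The list takes genes by family membership and was drawn up with earlier results of these data known. It leaves out Pparg, Nr1d1 and Nr1d2 and is not the whole family. Statements on all or no receptors below cover the listed genes only. Of the 40, 34 were abundant enough to be tested among 16563 genes. Levels are from polyA RNA of hepatocytes isolated from steatotic livers of 6 mice, 3 wild-type (WT) and 3 labelled as knockout (KO) for Ptprk, which encodes a receptor-type tyrosine phosphatase. The hepatocytes of each mouse were parted by a Percoll gradient and centrifugation into cells poor and cells rich in fat, called low-fat and high-fat below. Each genotype thus gave 3 libraries of either fraction, 12 in 4 groups. The labels give no diet, strain, age, sex, or design of the knockout. All animals share the steatosis, and no library comes from a lean liver.

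Nuclear receptors are transcription factors, most of which carry a zinc-finger domain that binds short DNA elements and a pocket that binds a small lipophilic ligand. Steroid receptors act mostly as homodimers, while the receptors for retinoids, thyroid hormone, oxysterols, bile acids, fatty acids and foreign compounds usually pair with an RXR partner, and several family members are orphans without an accepted ligand. In the liver they set the expression of genes for bile acid, lipid, glucose and drug metabolism. Esr1, estrogen receptor alpha, is the main estrogen receptor of hepatocytes.

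The DNA just upstream of annotated starts is shown for Esr1 and for Nr1i3 and Rarg. The latter are the only receptors called between fractions that held a motif named below. Windows of the other called receptors are not shown. Letters are from RefSeq, build GRCm38.p6, which is not the build named in the submitters' processing notes, and run 5′ to 3′ on the strand of the gene. Capitals mark the nuclear receptor half-site GGTCA on either strand (TGACC where it lies on the opposite strand) or the E-box CACGTG. The Esr1 windows are chr10:4611739-4611988 and chr10:4709908-4710157 on the plus strand, upstream of alternative starts. The Nr1i3 window is chr1:171213720-171213969 on the plus strand, and the Rarg window shown is chr15:102257523-102257772 on the minus strand. Another Rarg window, chr15:102246501-102246750, held neither motif and is not shown.
Esr1, the start at the lower coordinate: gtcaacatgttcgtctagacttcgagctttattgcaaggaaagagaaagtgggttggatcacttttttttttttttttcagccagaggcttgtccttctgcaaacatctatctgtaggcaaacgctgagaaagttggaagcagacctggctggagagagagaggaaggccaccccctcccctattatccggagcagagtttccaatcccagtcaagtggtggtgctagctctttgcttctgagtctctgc
Esr1, the start at the higher coordinate: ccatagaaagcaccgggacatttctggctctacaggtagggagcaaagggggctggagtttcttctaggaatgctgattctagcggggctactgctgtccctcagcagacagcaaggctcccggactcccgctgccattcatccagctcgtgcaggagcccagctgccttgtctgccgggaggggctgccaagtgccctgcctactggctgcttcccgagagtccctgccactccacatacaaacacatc
Nr1i3: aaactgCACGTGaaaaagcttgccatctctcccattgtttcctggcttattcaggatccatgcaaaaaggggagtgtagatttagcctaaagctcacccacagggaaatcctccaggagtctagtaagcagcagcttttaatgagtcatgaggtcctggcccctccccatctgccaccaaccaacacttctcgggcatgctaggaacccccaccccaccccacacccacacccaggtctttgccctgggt
Rarg: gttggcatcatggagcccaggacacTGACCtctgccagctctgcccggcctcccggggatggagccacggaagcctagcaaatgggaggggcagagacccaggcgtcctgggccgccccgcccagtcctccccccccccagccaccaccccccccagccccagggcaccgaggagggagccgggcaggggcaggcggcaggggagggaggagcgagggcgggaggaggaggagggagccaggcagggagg
Neither Esr1 window held either motif. Over all windows of the 7 receptors called below, Rarg alone held a GGTCA, in the window shown, and Nr1i3 alone held a CACGTG. RefSeq starts were matched for 37 of the 40 genes, with 55 windows of 250 bases. GGTCA lay in 20 of these 55 windows (36.4%), against 35.2% of all 32851 windows of that length. The longer half-site AGGTCA, which contains GGTCA, lay in 8 windows (14.5%, against 14.0%), and CACGTG in 5 (9.09%, against 6.02%). The inverted repeat of GGTCA and TGACC with any 3 bases between them, the arrangement bound by estrogen receptors, and the direct repeat of AGGTCA with any 1 base between lay in 0 of the 55 windows, against 0.0639% and 0.0335% of all. These matches describe letters only.

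Levels of the 40 genes were compared per length, as reads per 20 M (mega) reads divided by kilobases of annotated exon. Hnf4a, the hepatocyte identity factor, was the highest with a mean of 4098 per kb, followed by the heterodimer partner Rxra at 2581 and the fatty acid receptor Ppara at 1404. Next came the orphan repressor Nr2f6 (1295), the atypical corepressor Nr0b2 (1258), the bile acid receptor Nr1h4 (992), the oxysterol receptor Nr1h3 (884), and the xenobiotic receptors Nr1i3 (678) and Nr1i2 (610). The glucocorticoid receptor Nr3c1 had 412 per kb. Esr1, at 57.0 per kb, held rank 25 of 40. Length here counts every annotated exon base of a gene over all its transcripts, 13.7 kb for Esr1, and the ranks depend on that choice.

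**Figure D1:**
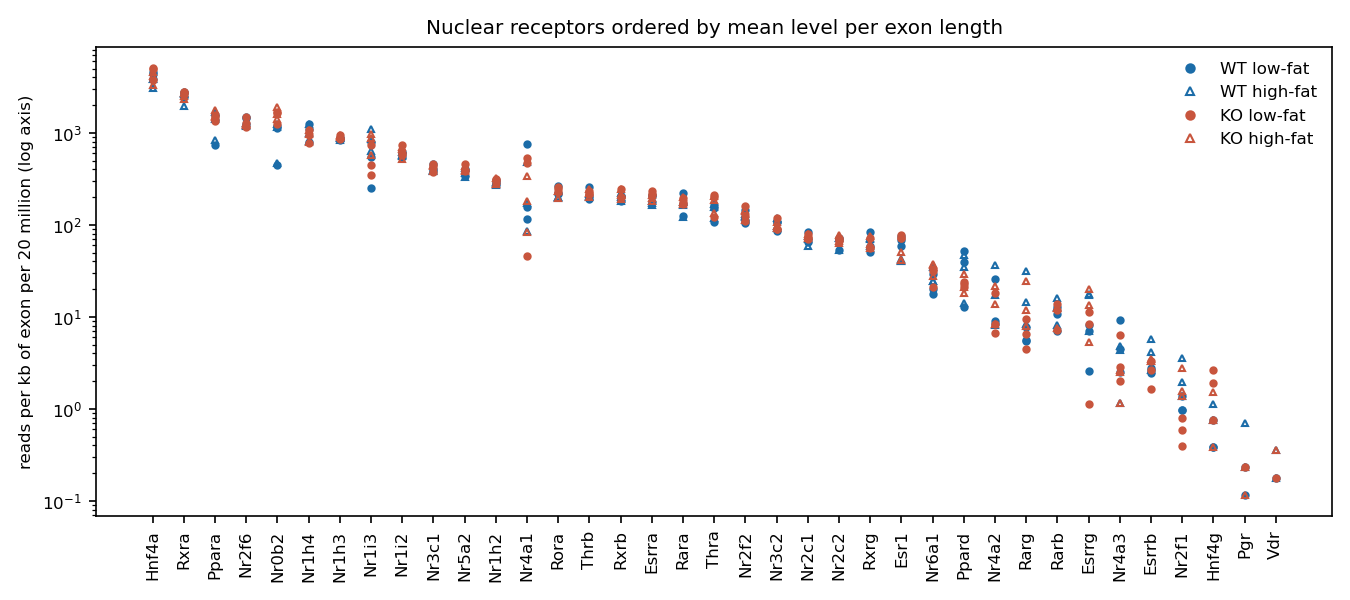
Points give each library's level of each nuclear receptor in reads per kb of exon per 20 M reads, on a log axis, for the 37 genes above 0 in at least 1 library, with values of 0 omitted. Hnf4a and Rxra stand at the top, and Esr1 lies at 57.0 per kb on average.

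The remaining 6 genes were too low to be tested. Esr2 (estrogen receptor beta), Nr2e3 and Nr0b1 were at 0 in all 12 libraries, while the vitamin D receptor Vdr reached 2, the progesterone receptor Pgr 6 and Hnf4g 7 reads per 20 M. A count of 0 allows up to 2.40 to 3.98 reads per 20 M, the worth of 3 reads in the deepest and the shallowest library (counting error only). Of the 34 genes tested, 21 differed by under 2-fold between the highest and the lowest of the 12 libraries, and only Nr4a1 (161 to 2634) and Esrrg (7 to 126) by over 10-fold. Ppard ranged from 97 to 391.

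Estimated depth was 15.1 to 25.0 M reads. Ptprk lay between 1117 and 1364 reads per 20 M in KO and between 2174 and 2883 in WT libraries, without overlap, though transcript remained in KO. Xist was at 0 to 6 and the Y-linked Ddx3y at 1444 to 1808 in all 12 libraries, genes chosen after their values were seen. Markers of hepatocytes summed to 705793 to 786040 in low-fat and 714855 to 801470 in high-fat libraries, 0.919 to 1.10 times the low-fat sum of the same mouse. Within that sum single markers moved apart: of the 12, Cyp2e1 rose (log2 fold change 0.71, limma adjusted p = 0.00174) and Pck1 fell (-0.32), 10 were not called, and the median was -0.14. Markers of 3 other liver cell types were much higher in the high-fat libraries. All 12 of 12 stellate, 12 of 12 sinusoidal endothelial and 12 of 12 Kupffer cell markers rose, with median log2 fold changes of 2.52, 1.77 and 2.23 (2.24, 1.36 and 1.48 without the replicate 1 mice, where 11 of the 12 Kupffer markers rose). Their sums went from 221 to 968 up to 2940 to 5548 for stellate cells, from 1246 to 3055 up to 5151 to 16778 for endothelial cells and from 536 to 1645 up to 2475 to 13465 for Kupffer cells, and 0 of these markers were absent from all libraries. Of 3 tested cholangiocyte markers 0 rose and 2 fell (median -0.26), and of 3 tested lymphocyte and neutrophil markers 0 were called by limma, with 1 at an unadjusted p under 0.05. The replicate 1 mice of both genotypes stood apart, with Kupffer marker ratios of 11.1 (WT) and 21.6 (KO) against 1.73 to 3.63 in the other 4 mice. Named genes called between fractions of 6 mice are given without these mice where the call is lost or the change passes 1.5 times. Receptors not called were not treated so, and some changed by more. Without these mice Nr2f6 went from -0.20 to -0.07, Nr4a2 from 0.36 to 0.12 and Nr1h3 from -0.05 to 0.01. In bulk libraries such as these, fewer cells of a type and less RNA per cell cannot be told apart.

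**Figure D2:**
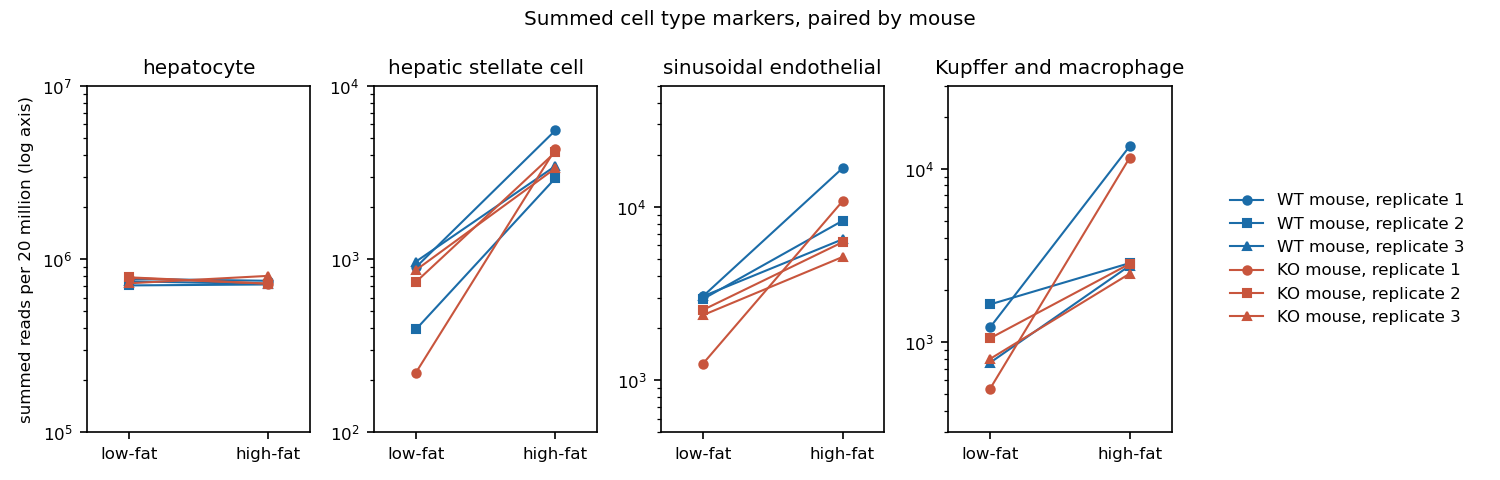
Lines join the low-fat and high-fat library of each mouse, with the summed reads per 20 M of 12 markers per cell type on log axes that each span the same fold range. The hepatocyte sum is 0.919 to 1.10 times the low-fat sum, although single markers in it moved both ways, and the Kupffer sums of both replicate 1 mice climb most.

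The principal comparison asked which receptors differ between high-fat and low-fat hepatocytes of the same mouse. Of the 34 receptors tested, 7 were called at a limma adjusted p under 0.05, or 20.6%, against 15.4% of all 16563 genes. Nr1i3, Rarg and Esrrg rose in the high-fat fraction (3 of 34, with 8.35% of all genes called higher), and Esr1, Hnf4a, Rora and Esrra fell (4 of 34, with 7.02% called lower). The median log2 fold change of the 34 was -0.08, beside -0.04 over all genes tested, and 23 were negative. An unadjusted p under 0.05 was found for 15 of the 34, against 32.1% of all genes. After TMM rescaling between libraries, Esr1, Hnf4a, Rora, Nr1h2, Rxra and Nr2c2 were lower in 6 of 6 mice (11.7% of all genes were). Rarg, Nr1i3, Nr2f1 and Esrrg were higher in 6 of 6 (9.74% of all genes). For Nr2c2 and Nr1h2 this depended on the rescaling. In deposited values of KO replicate 1, Nr2c2 went from 1067 up to 1155 and Nr1h2 from 953 up to 1072. With the deposited scaling alone their log2 fold changes were 0.0075 and -0.042. Nr2f1 reached the level needed for testing only in high-fat libraries, so its direction gives no support. The share called is near the background, so the size and direction of single receptors carry the description below. Counts called in role groups and gene lists stand beside the same shares of all genes, 8.35% higher and 7.02% lower. These shares hold for the main fit of all 6 mice. Without the replicate 1 mice, 914 of 16563 genes were called higher and 375 lower.

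**Figure D3:**
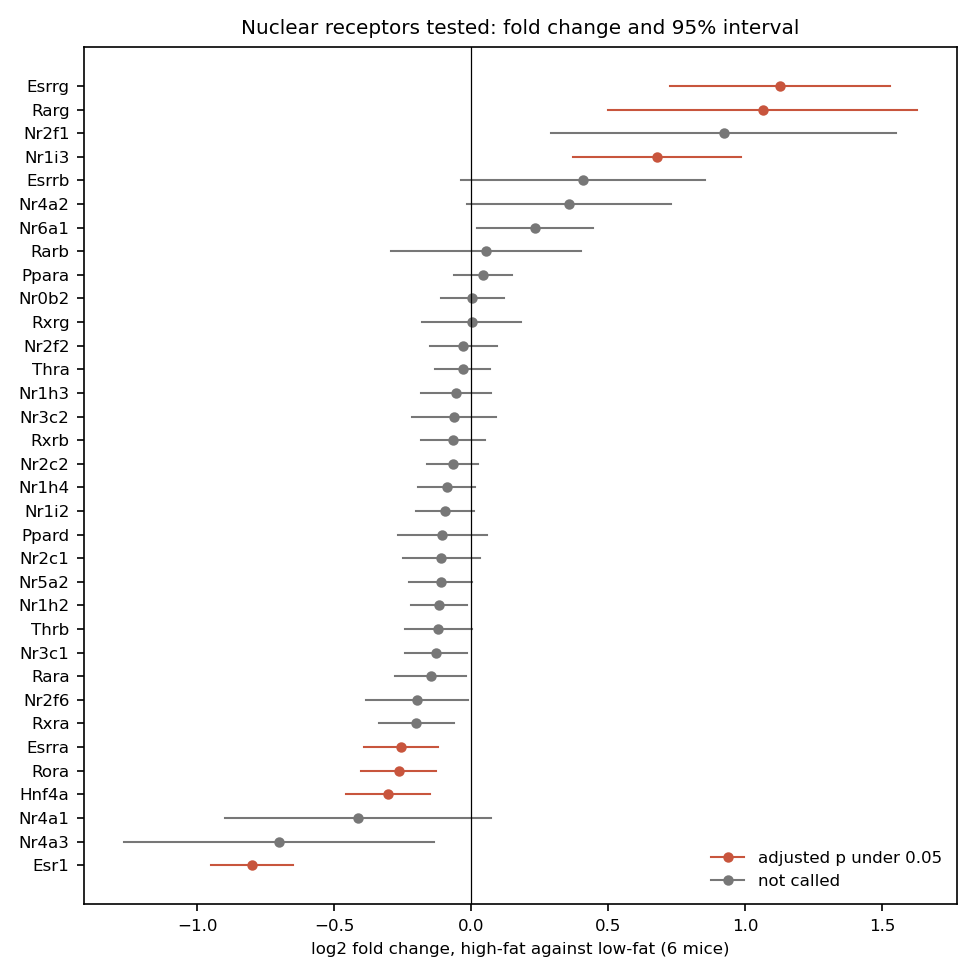
Points give the log2 fold change between fractions (high-fat over low-fat) for the 34 receptors tested in 6 mice, and bars its 95% interval. The 7 called receptors are in red, from Esr1 at -0.80 to Esrrg at 1.13, and most others lie near 0.

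Among steroid receptors, Esr1 fell in the high-fat fraction in every mouse. Its levels were 1027, 944 and 808 reads per 20 M in WT low-fat and 554, 579 and 556 in WT high-fat libraries. In KO they were 980, 994 and 1071 in low-fat and 564, 573 and 687 in high-fat libraries. All 6 high-fat values thus lay below all 6 low-fat values, and Esr1 was the only receptor whose fractions did not overlap, against 4.84% of all genes. The log2 fold change was -0.80 (limma adjusted p = 0.000722, SE 0.067, 95% interval -0.95 to -0.65), which leaves 57.4% of the low-fat level. A two-sided exact paired permutation test over the 6 mice gave p = 0.03125, the smallest that 6 pairs allow. By mouse the difference was -1.02, -0.71 and -0.64 in WT and -1.02, -0.78 and -0.63 in KO. The replicate 1 mice gave the greatest differences in both genotypes, and without them the log2 fold change was -0.69 (limma adjusted p = 8.66e-05). Over all tested genes Esr1 had rank 6 by p, and 41 of the 1162 genes called lower (3.53%) fell as much or more. No annotated gene overlaps it.

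The glucocorticoid receptor Nr3c1 had 2911, 3224 and 3520 as lowest, median and highest level in low-fat and 2922, 2979.5 and 3460 in high-fat libraries. Its fractions overlapped, and its log2 fold change was -0.13 (limma adjusted p = 0.113). The mineralocorticoid receptor Nr3c2 was at -0.06 and was not called. Of 5 tested genes linked to Esr1 in liver, such as the estrogen sulfotransferase Sult1e1, 0 were called by limma and 3 had an unadjusted p under 0.05 (median -0.18).

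The estrogen-related receptors, orphans that work with the coactivator Ppargc1a on genes of energy metabolism, moved apart. Esrrg, the least abundant of the called receptors per kb, had 16, 51 and 43 reads per 20 M in WT low-fat and 44, 106 and 111 in WT high-fat libraries. In KO it had 7, 52 and 70 in low-fat and 33, 126 and 84 in high-fat libraries. All 6 mice had more Esrrg in their high-fat library, although the fractions overlapped because mice differed. Its log2 fold change was 1.13 (limma adjusted p = 0.00364, SE 0.18), or 2.18-fold. It was 0.94 without the replicate 1 mice (limma adjusted p = 0.00613), and the call was lost without the mouse as a replicate block (limma adjusted p = 0.283). Esrrg overlaps 4 annotated genes, Gm38315 on its own strand and Gm36388, Gm37929 and 9330162B11Rik on the opposite strand.

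Esrra, the more abundant estrogen-related receptor, went the other way. Its levels in WT were 936, 909 and 776 in low-fat and 794, 757 and 721 in high-fat libraries, and in KO 941, 920 and 1021 against 855, 930 and 799. It was lower in 5 of 6 mice, and only KO replicate 2 differed in direction. On average the log2 fold change was -0.26 (limma adjusted p = 0.0216, SE 0.060). The call was lost under 7 of 13 alternatives, among them the deposited scaling alone (-0.18, limma adjusted p = 0.071) leaving out any mouse but KO replicate 2, and leaving out both replicate 1 mice (-0.20, limma adjusted p = 0.136). Esrra overlaps Trmt112 on the opposite strand and Mir6990 on its own, and strandedness is not given, so their reads cannot be told apart. Esrrb, at 10 to 35 reads per 20 M, was not called. Ppargc1a fell with a log2 fold change of -0.41 (limma adjusted p = 0.00289, SE 0.062), lower in 6 of 6 mice. Among 17 coactivators and corepressors, 0 rose and 2 fell, the other being the corepressor subunit Tbl1x at -0.22, and the median was -0.07. The Tbl1x call was lost under 6 of 13 alternatives, among them leaving out any WT mouse, KO replicate 1 or both replicate 1 mice (-0.16, limma adjusted p = 0.145).

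Hnf4a and Rora, orphans tied to hepatocyte identity and to lipid and clock gene control, fell by small amounts. Hnf4a had 22057, 18635 and 20964 reads per 20 M in WT low-fat and 18421, 14760 and 18566 in WT high-fat libraries. In KO it had 23995, 24270 and 18034 in low-fat and 19848, 22067 and 15790 in high-fat libraries. The fractions overlapped between mice, yet the high-fat library was lower in 6 of 6 mice. Hnf4a changed by a log2 fold change of -0.30 (limma adjusted p = 0.0174, SE 0.068), to 81.0% of the low-fat level. The call was lost without any of the 3 WT mice, without both replicate 1 mice (-0.23, limma adjusted p = 0.0571) and without the replicate block, with adjusted p-values of up to 0.193. Hnf4a overlaps Hnf4aos on the opposite strand and Gm25881 on its own.

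Rora in WT had 3477, 2867 and 2822 in low-fat and 2643, 2540 and 2621 in high-fat libraries, and in KO 3362, 3229 and 3002 against 3031, 3051 and 2560. The high-fat library was lower in each of the 6 mice, most in WT replicate 1 and least in KO replicate 2. Its log2 fold change came to -0.26 (limma adjusted p = 0.0199, SE 0.061). Without the replicate 1 mice it was -0.17 (limma adjusted p = 0.099), and the call was also lost without WT replicate 1, WT replicate 3 or KO replicate 3 and without the replicate block. Rora overlaps Gm15511 on the opposite strand. Of 14 clock genes, which Rora and its relatives help to time, 4 fell, led by Cry1, Dbp and Nfil3, 0 rose, and the median was -0.15, beside 7.02% of all genes called lower and a median of -0.04. These calls were not stable. Of the 14, 0 were called without the replicate block, without WT replicate 2 or without KO replicate 3, and 1 with the deposited scaling alone or without WT replicate 1, WT replicate 3 or KO replicate 1. Without both replicate 1 mice 3 were called, and Cry1 (-0.24, limma adjusted p = 0.14) and Dbp (-0.22, limma adjusted p = 0.0813) were not among them. Nr5a2, a receptor of bile acid and cholesterol genes, was at -0.11 and was not called.

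**Figure D4:**
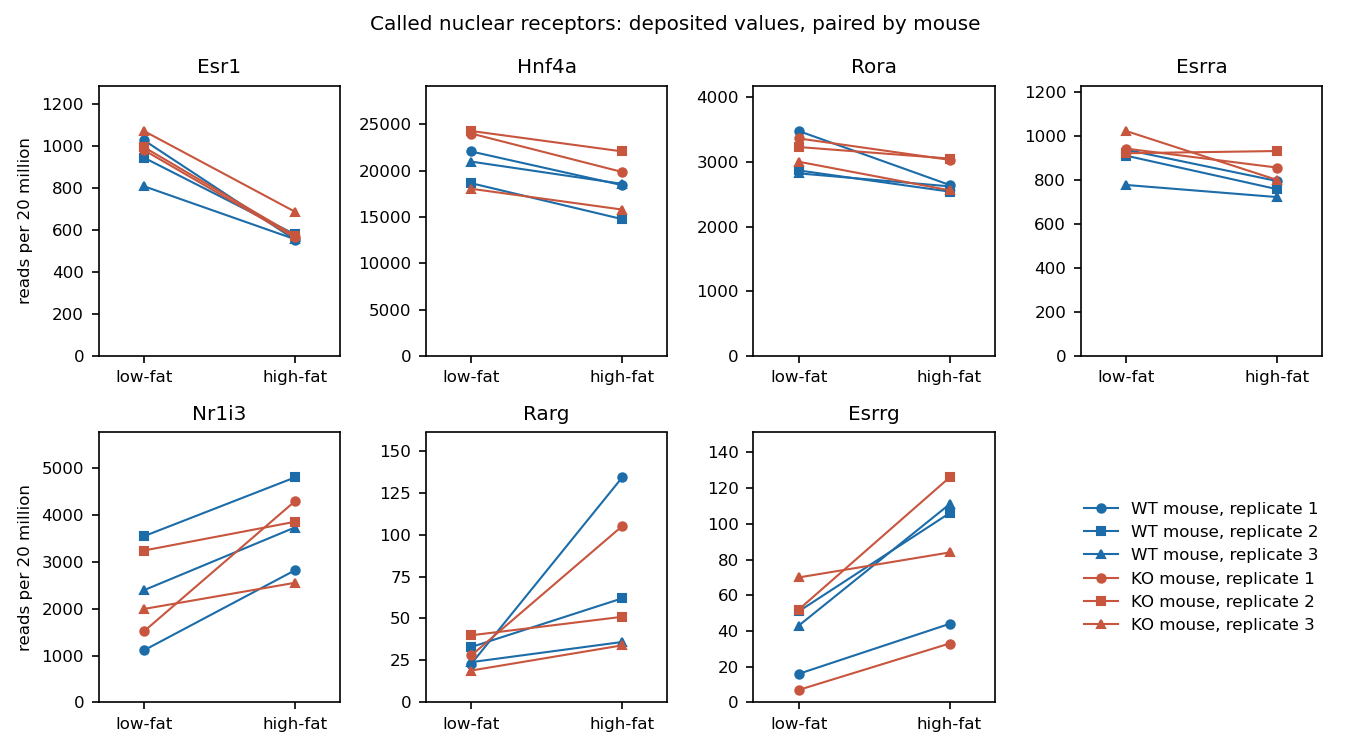
Lines join the low-fat and high-fat library of each mouse for the 7 called receptors, in reads per 20 M on axes that start at 0. Esr1 is the panel in which the 6 high-fat values (554 to 687) all lie below the 6 low-fat values (808 to 1071), while the Rarg rise is steepest in the replicate 1 mice.

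Of the xenobiotic receptors, Nr1i3 (the constitutive androstane receptor) rose and Nr1i2 (the pregnane X receptor) was not called. Nr1i3 had 1113, 3552 and 2398 reads per 20 M in WT low-fat and 2822, 4807 and 3738 in WT high-fat libraries. In KO it had 1518, 3246 and 1997 in low-fat and 4296, 3860 and 2556 in high-fat libraries. Both replicate 1 mice were lowest in their low-fat group, and each mouse was higher in its high-fat library. The log2 fold change was 0.68 (limma adjusted p = 0.0108, SE 0.14), or 1.60-fold. By mouse it was 1.21 and 1.27 in the replicate 1 mice of WT and KO against 0.26 to 0.54 in the other 4. Without the replicate 1 mice it was 0.40 (limma adjusted p = 0.00213), and without the replicate block the adjusted p was 0.185. Nr1i3 overlaps Tomm40l on the opposite strand.

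Nr1i2 ranged from 1312 to 1874 over the 12 libraries, with a log2 fold change of -0.09 (95% interval -0.20 to 0.01). Among 10 genes listed together as targets of Nr1i2 or Nr1i3, 5 rose and 0 fell, with a median of 0.49 beside -0.04 over all genes. Cyp3a11, a steroid and drug hydroxylase, had 7364, 11522 and 20486 as lowest, median and highest level in low-fat and 20794, 28010 and 35675 in high-fat libraries (log2 fold change 1.12, SE 0.12, limma adjusted p = 0.00087). Cyp2c29, another drug-metabolising P450, rose by 1.08 (limma adjusted p = 0.000749, SE 0.10), and the glutathione transferase Gstm3 by 0.60. All 3 genes were higher in 6 of 6 mice. Cyp2b10, a classical Nr1i3 target named here after its values were seen, had 9 to 58 reads per 20 M in low-fat and 20 to 63 in high-fat libraries and was not called (0.28, limma adjusted p = 0.305). Without the replicate 1 mice 6 of the 10 rose, with a median of 0.54. The part of non-hepatocyte cells in these values was not tested.

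In the retinoid and thyroid hormone group, Rarg (retinoic acid receptor gamma) was the only receptor of 8 tested to be called. In WT it had 23, 33 and 24 reads per 20 M in low-fat and 134, 62 and 36 in high-fat libraries, and in KO 28, 40 and 19 against 105, 51 and 34. The highest values were those of the replicate 1 mice in the high-fat fraction. Rarg had a log2 fold change of 1.06 (limma adjusted p = 0.0217, SE 0.25), or 2.09-fold. By mouse it was 2.32 and 1.62 in the replicate 1 mice of WT and KO and 0.35 to 0.86 in the others. Without the replicate 1 mice it was 0.61 and not called (limma adjusted p = 0.0669), and the call was also lost without WT replicate 2, without KO replicate 1 and without the replicate block, with adjusted p-values of up to 0.085. Kupffer, endothelial and stellate markers rose in the same libraries, most for Kupffer markers in the replicate 1 mice, and their part in the Rarg result was not tested.

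Rxra, the shared heterodimer partner, had 13390, 14976 and 15176 as lowest, median and highest level in low-fat and 10619, 14006 and 14877 in high-fat libraries. It was lower in 6 of 6 mice but overlapped, and its log2 fold change of -0.20 was not called (95% interval -0.34 to -0.06, limma adjusted p = 0.055). Rxrb, Rxrg, Rara, Rarb, Thra and Thrb lay between -0.15 and 0.05 and were not called. Of 5 tested targets of the retinoic acid receptors 2 rose, the transcriptional repressor Hic1 (1.87, limma adjusted p = 0.000867) and the retinoic acid hydroxylase Cyp26b1 (1.57, limma adjusted p = 0.00104), and both rose too without the replicate 1 mice. Stellate markers rose 3.57-fold to 19.5-fold in the same mice, and their part was not tested. Of 5 thyroid hormone targets, the corepressor gene Hr rose (0.93, limma adjusted p = 0.0176) and the lipogenic gene Thrsp fell (-0.29). Hr without the replicate 1 mice was at 0.73 and not called (limma adjusted p = 0.141), and its call was also lost without WT replicate 1.

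No call was made among the 5 lipid and bile acid sensors, whose log2 fold changes ran from -0.12 to 0.04. Ppara had 2846, 5474.5 and 6046 as lowest, median and highest level in low-fat and 3227, 5772.5 and 6852 in high-fat libraries. The fractions overlapped broadly, and the log2 fold change was 0.04 (95% interval -0.06 to 0.15, limma adjusted p = 0.558). The bile acid receptor Nr1h4 was at -0.09 (95% interval -0.19 to 0.01) and the oxysterol receptor Nr1h3 at -0.05 (95% interval -0.18 to 0.07). These 3 intervals stay within 0.2 of 0 on the log2 scale.

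Their target lists moved in part, beside 8.35% of all genes called higher and 7.02% called lower. Of 14 Ppara targets 4 rose and 0 fell (median 0.07), led by Pdk4, a brake on glucose oxidation, at 0.71 (limma adjusted p = 0.0202), Acot1, a thioesterase, at 0.67 (0.00114 by the same test) and the pantetheinase Vnn1 at 0.56. Pdk4 was not called without WT replicate 1, without WT replicate 2 or without both replicate 1 mice (0.41, limma adjusted p = 0.0533). Leaving out WT replicate 1 or WT replicate 2 left 2 Ppara targets called, leaving out the replicate block left 0, and leaving out KO replicate 2 added 2 called lower. Of 9 targets of the oxysterol receptors 3 rose and 2 fell (median -0.04). The ubiquitin ligase Mylip (1.85), the sterol exporter Abcg1 (1.57) and the lipid transfer protein Pltp (1.08) rose, and the lipogenic factor Srebf1 (-0.34) and the acyltransferase Lpcat3 (-0.22) fell. With both replicate 1 mice left out, Abcg1 was at 0.89 and Pltp at 0.66, both still called, and Lpcat3 at -0.17 was not (limma adjusted p = 0.0887). Without WT replicate 1 alone, Abcg1 and Lpcat3 were not called. Abcg1 and Mylip are also made by macrophages, and Kupffer markers rose 1.73-fold to 21.6-fold in the same mice, a part that was not tested. Of 8 tested Nr1h4 targets, Cyp7a1, the rate-limiting enzyme of bile acid synthesis, rose by 0.64 (limma adjusted p = 0.00565, SE 0.11, higher in 6 of 6 mice). The list pools genes without the direction in which Nr1h4 acts on them, so it gives no reading of receptor activity. Slc10a1, the bile acid uptake carrier, fell by 0.23 on the log2 scale (limma adjusted p = 0.0447). That call was lost under 9 of 13 alternatives, with adjusted p-values of up to 0.331, among them median-of-ratios scaling, no filter on low values, leaving out any mouse but KO replicate 2, and leaving out both replicate 1 mice (-0.14, limma adjusted p = 0.23).

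Enzymes that make or clear receptor ligands were also listed, and of 14 tested 3 rose and 1 fell (median -0.06). Cyp27a1, which makes oxysterols and bile acid precursors, had 4348 to 6574 reads per 20 M in low-fat and 7125 to 8788 in high-fat libraries (0.45, limma adjusted p = 0.00216). Its fractions did not overlap. Aldh1a1, which makes retinoic acid, rose by 0.28 and the steroid reductase Akr1c6 by 0.23, while Srd5a1, a steroid 5-alpha-reductase, fell by 0.52 on the log2 scale (limma adjusted p = 0.00223). Akr1c6 lost its call under 7 of 13 alternatives, including without the replicate 1 mice (0.20, limma adjusted p = 0.128), and Aldh1a1 under 5, including without any WT mouse or KO replicate 3. Of 10 targets of Nr3c1, 2 fell, the gluconeogenic genes G6pc (-0.36) and Pck1 (-0.32), and 0 rose. Neither was called without WT replicate 2 or WT replicate 3, and without both replicate 1 mice 4 of the 10 were called lower. Without the replicate block, of the target and pathway genes named here and above only Cyp3a11, Cyp2c29, Hic1, Mylip, Abcg1 and Pltp were called.

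Among the other orphans 0 of 6 tested were called. Nr2f6 had 3463, 4090 and 4427 as lowest, median and highest level in low-fat and 3571, 3670 and 3828 in high-fat libraries, with a log2 fold change of -0.20 (limma adjusted p = 0.138). The COUP factor Nr2f1 was higher in 6 of 6 mice, but at 2 to 7 reads per 20 M in low-fat and 7 to 18 in high-fat libraries it lay near the limit of detection (0.92, limma adjusted p = 0.0539). It passed the filter for testing only through high-fat libraries, which favoured a rise. Its relative Nr2f2 was at -0.03.

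The immediate early orphans Nr4a1, Nr4a2 and Nr4a3, induced within minutes of stress or stimulation, varied widely between mice. Nr4a1 in WT had 542, 2634 and 404 in low-fat and 612, 1700 and 301 in high-fat libraries, and in KO 161, 1853 and 1635 against 292, 637 and 1185. WT replicate 2 was highest in both fractions, and both replicate 1 mice were higher in the high-fat library while the other 4 were lower. The log2 fold change was -0.41 (95% interval -0.90 to 0.07) and was not called. Without the replicate 1 mice, an alternative chosen after seeing the data, Nr4a1 was called lower (-0.79, limma adjusted p = 0.00564). In that setting 375 of all 16563 genes were called lower, among them Nr4a1 and 4 of 10 immediate early genes of cell isolation. With all 6 mice 0 of these 10 were called by limma, and 0 had an unadjusted p under 0.05. Nr4a3 was at -0.70 (limma adjusted p = 0.0904) and Nr4a2 at 0.36, neither called.

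Taken by genotype, the fraction difference of Esr1 was alike in size. In WT it was -0.79 (limma adjusted p = 0.0479, SE 0.10) and in KO -0.81 (limma adjusted p = 0.023, SE 0.10). Esr1 was the only receptor called in either genotype, 1 of 34 in each, against 1.02% of all genes in WT (0.7% higher and 0.32% lower) and 2.13% in KO (1.7% higher and 0.429% lower). The WT call was lost under 8 of 14 alternatives, with adjusted p-values of up to 0.403, among them leaving out each WT mouse or KO replicate 3. The KO call was lost under 4 of 14, with adjusted p-values of up to 0.0781, namely without WT replicate 2, KO replicate 2 or KO replicate 3 and in a fit of the KO libraries alone. The interaction of fraction and genotype for Esr1 was -0.02 (95% interval -0.35 to 0.31). For the interaction 0 of 34 receptors were called by limma, as were 0.0% of all genes, and 0 of 34 had an unadjusted p under 0.05 (0.386% of all genes).

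The last comparison asked whether loss of Ptprk moved any receptor. No receptor was called in low-fat libraries, in high-fat libraries or on the mean of both fractions of a mouse, where 1 gene, Ptprk, or 0.00604% of all genes, was called by limma in each. An unadjusted p under 0.05 was found for 0 of 34 receptors in low-fat (1.64% of all genes), 1 in high-fat (1.97%) and 1 on the mean of both (2.23%), and it was Nr0b2 in each case. Esr1 was 0.14 higher in KO on the mean of both fractions (95% interval -0.09 to 0.36), and a two-sided exact permutation test gave p = 0.2, where the smallest possible is 0.1.

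Nr0b2, small heterodimer partner, represses other receptors and is itself a target of the bile acid receptor. It had 503, 1349 and 1264 reads per 20 M in WT low-fat and 531, 1310 and 1417 in WT high-fat libraries. In KO it had 1405, 1861 and 1926 in low-fat and 1583, 2134 and 1800 in high-fat libraries. WT replicate 1 stood well below the other WT mice in both fractions, and within each fraction all KO values lay above all WT values. The log2 fold change on the mean of both was 0.88 (SE 0.36, 95% interval 0.05 to 1.71) and was not called. Over the 13 alternatives it ranged from 0.42 to 1.13, with adjusted p-values from 0.90 upward. Between fractions Nr0b2 did not move beyond its error (0.00, 95% interval -0.11 to 0.12).

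The mouse means of KO lay above those of WT without overlap for Nr1h3, Esrra and Nr0b2 and below for Nr2f1, together 4 of 34 receptors, against 6.36% of all genes. For Nr1h3 the gap was narrow, with a lowest KO mean of 11.124 and a highest WT mean of 11.119 on the log2 scale. For Nr2f1, near the limit of detection, the highest KO mean was 2.98 and the lowest WT mean 3.02. Esrra differed by 0.18 on the log2 scale (95% interval -0.0035 to 0.36) and Nr6a1, the germ cell nuclear factor, by 0.34 (-0.04 to 0.73), neither called. Beside these values, endothelial markers had a median log2 fold change of -0.59 in KO, with 9 of 12 at an unadjusted p under 0.05 and 0 called by limma. Their part in the receptor values was not tested.

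**Figure D5:**
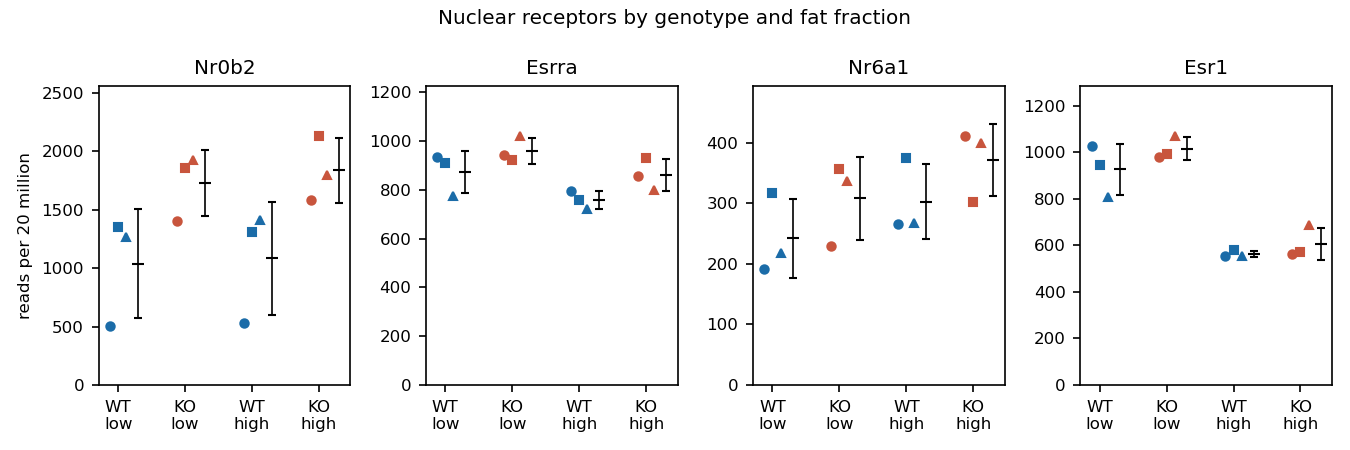
Points give the 3 libraries of each group in reads per 20 M on axes that start at 0, and bars the mean with 1 SD, for Nr0b2, Esrra, Nr6a1 and Esr1. The KO values of Nr0b2 (1405 to 2134) extend above those of WT (503 to 1417), and WT replicate 1 is lowest.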

How the data were processed

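Libraries were made from polyA RNA of sorted hepatocytes, per the labels' protocols. The build mm9 comes from the submitters' processing notes, and the aligner, counter, annotation and strandedness are not given in the sources used here. The deposited values are a score: the authors' columns each total 20.01 M (mega) and their gaps show read counts scaled to 20 M and rounded up, so they are not raw counts. Depth (15.1 to 25.0 M reads) was estimated from those gaps. Genes with at least 10 in at least 3 libraries (16563 of 52636) were rescaled by TMM (factors 0.928 to 1.085), put on the log2(value + 2) scale and fitted with limma 3.58.1 in R 4.3.3, a test checked on simulated data. Fold changes are on that scale, which understates low genes. P-values are two-sided and Benjamini-Hochberg adjusted over all genes, and a gene was called under 0.05. Fraction comparisons used the mouse as a replicate block, since the labels name the same mouse for both fractions. Library deviations from group means correlated with a mean r of 0.516 within WT mice and 0.162 within KO mice (-0.0116 to 0.458). KO against WT used 4 group means, or mouse means for both fractions together. Same-numbered WT and KO libraries, though from different mice, correlated at 0.252 to 0.397 in low-fat and -0.173 to 0.49 in high-fat libraries. Exon lengths and overlaps are from GENCODE M21. Named with values were Esr1, receptors called in any comparison or at an unadjusted p under 0.05 between genotypes, and the most abundant of each role. From each list at most the 3 called genes with the greatest rise and fall were named. The receptors and lists were chosen with earlier results of these data known, so no list gives independent support. Alternatives were other pseudocounts (0.5, 10), filters, scalings, blocks, and omitted mice or libraries.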

Additional observations from a re-analysis of the deposited data

How the results depend on the processing

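Esr1 kept its direction and its limma call between fractions of 6 mice under each of 13 alternatives (-0.83 to -0.69). Leaving out 1 mouse gave exact paired permutation values of -0.834 to -0.757, each at p = 0.0625, the smallest that 5 pairs allow. The deposited scaling alone called 1996 genes between fractions of 6 mice, 74.2% of them higher, against 2545 and 54.3%. Without the replicate block 954 genes were called, 2 of them receptors (Esr1 and Esrra, 5.76% of all genes called). Leaving out 1 mouse gave 1184 to 4879 calls, the highest without KO replicate 2, where 13 receptors were called (29.5% of all genes), and leaving out both replicate 1 mice, an alternative chosen after seeing the data, gave 1289 calls, 4 of them receptors (7.78%). In WT, against 169 calls, limma called 0 genes with a pseudocount of 0.5 (3124 at an unadjusted p under 0.05), without the filter (4234), with median-of-ratios scaling (3169) and without the replicate block (1904). It called 1532 genes in the WT libraries alone, 467 without the replicate 1 mice and 0 to 1586 without 1 mouse. In KO, against 353, it called 115 without the filter, 148 without the replicate block, 0 in the KO libraries alone (1625 at an unadjusted p under 0.05) and 0 to 304 without 1 mouse, the 0 being without WT replicate 2 or KO replicate 2 (2049 and 3666). Between genotypes the 1 call, Ptprk, became 0 without the replicate 1 mice in low-fat, high-fat and mean libraries (463, 695 and 486 at an unadjusted p under 0.05) and in the high-fat libraries alone (222). On mouse means it became 0 with the replicate block (665) and without any 1 mouse (247 to 732). The replicate block left 1 call in each fraction and 0 receptors. Of the receptor values under alternatives, 3173 kept their call status (229 of these, none of them called, changed sign), 22 gained and 35 lost a call, and 0 called values reversed. The cause of these changes was not tested. With 3 mice per genotype, true receptor differences between genotypes of any size within the intervals given remain possible.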
